A study of Mus musculus with 36 samples.

Results

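The genome segments described here were assigned to the middle (M) replication timing state in CH12 cells and to the late (L) state in primary B cells. They were chosen by state: a 20 kb bin of an autosome was a member where the map of CH12 cells gave M and the map of primary B cells gave L, and bins made wholly of unknown bases were left out. Members numbered 1744 of 119839 autosomal bins, which is 1.46% of them, and covered 34.9 Mb. They made up 5.69% of the 30639 bins that were M in CH12 cells and 3.80% of the 45905 bins that were L in primary B cells. Of the 4429 bins that held a later state in primary B cells than in CH12 cells, 39.4% were members. Because both B cell maps chose the members, values of these maps are given as a description.

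Replication timing (RT) was measured in mouse B cells by Repli-seq, in 36 libraries of 7 groups. The maps compared rest on 8 of them: 2 replicates each of early and late S phase cells, for CH12 cells and for WT primary B cells. The methods describe replicates both as separate sorts of one sample and as separately thawed vials of CH12 cells, so their kind is not settled, and they were merged ahead of the state calls, which leaves a single map for each condition and no replicate error. A further map, of WT mouse embryonic fibroblasts (MEFs), was not used to choose the members, and no sample label goes with it.

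CH12 is a mouse B cell lymphoma line, here with intact Rif1 and infected with a lentivirus that expresses an shRNA against LacZ (shLacZ), the control for infection, followed by puromycin selection. The primary cells were activated splenic B cells of WT mice, which carried no shRNA. Labels give a single growth protocol for all samples, RPMI medium with IL4, CD40 and TGF beta stimulation, worded for CH12 cells, so the activation of the primary cells is not settled by it. Age and number of the mice were not given in the sources used here. Cell line, transformation, infection and selection all differed between the maps and cannot be told apart as sources of a difference.

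Cells copy their genome in a set order during S phase, and long stretches of chromosome that copy together form timing domains. Gene-rich, GC-rich and transcribed chromatin tends to copy early, and gene-poor chromatin near the nuclear lamina tends to copy late. The middle state covers both the slopes that join early to late domains and separate stretches of intermediate timing. Much of the genome keeps its timing in all cell types, while other domains switch during development, often around genes of the lineage concerned.

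The members formed 165 runs of adjacent bins on 19 chromosomes. The upstream sequences of 5 protein-coding genes in the longest runs are shown first, because promoters in the members ranged from rich in CpG to free of it. Each line gives the 250 bases before the annotated gene start, read on the gene's strand from the NCBIM37 reference (mm9), with CpG dinucleotides in capitals. Epha4 encodes a receptor tyrosine kinase for ephrins, Pappa2 a protease of insulin-like growth factor binding proteins, and Fgf10 a growth factor of limb and lung development. Gm14418 and Gm14420 are neighbouring gene models of a repeated cluster on chromosome 2. The choice of Fgf10 and the Gm pair was made after their values were seen.
Epha4 (chr1:77511664-77511913, minus strand): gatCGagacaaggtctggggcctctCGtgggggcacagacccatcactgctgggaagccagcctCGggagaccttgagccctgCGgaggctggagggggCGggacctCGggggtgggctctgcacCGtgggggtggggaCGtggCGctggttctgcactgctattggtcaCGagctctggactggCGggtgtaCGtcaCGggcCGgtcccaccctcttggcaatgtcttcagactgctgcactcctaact
Pappa2 (chr1:160887871-160888120, minus strand): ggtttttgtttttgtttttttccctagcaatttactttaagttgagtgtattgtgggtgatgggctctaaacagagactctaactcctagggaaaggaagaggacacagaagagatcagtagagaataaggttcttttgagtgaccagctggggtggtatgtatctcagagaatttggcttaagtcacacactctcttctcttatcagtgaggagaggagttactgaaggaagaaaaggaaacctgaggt
Fgf10 (chr13:119458348-119458597, plus strand): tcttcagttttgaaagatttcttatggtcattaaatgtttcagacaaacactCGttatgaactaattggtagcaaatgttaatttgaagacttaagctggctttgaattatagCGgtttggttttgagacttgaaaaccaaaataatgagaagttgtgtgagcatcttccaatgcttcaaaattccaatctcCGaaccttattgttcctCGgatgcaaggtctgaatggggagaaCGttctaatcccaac
Gm14418 (chr2:177183026-177183275, minus strand): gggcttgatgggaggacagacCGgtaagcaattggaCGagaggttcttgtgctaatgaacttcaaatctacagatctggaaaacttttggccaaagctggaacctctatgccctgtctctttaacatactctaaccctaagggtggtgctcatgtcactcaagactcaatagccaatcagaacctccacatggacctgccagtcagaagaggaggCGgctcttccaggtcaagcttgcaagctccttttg
Gm14420 (chr2:177249188-177249437, plus strand): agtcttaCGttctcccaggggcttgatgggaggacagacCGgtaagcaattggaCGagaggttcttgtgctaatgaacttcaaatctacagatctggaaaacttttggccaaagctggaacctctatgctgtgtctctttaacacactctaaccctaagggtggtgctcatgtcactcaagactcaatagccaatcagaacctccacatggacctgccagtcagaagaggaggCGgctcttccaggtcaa
The sequence before Epha4 held 14 CpG. Pappa2 had 0 CpG and Fgf10 had 5. Gm14418 and Gm14420 had 3 and 4 CpG, and shared an unbroken stretch of 111 bases, which is longer than the 50 bases of a sequencing read. In the whole cluster, 7 of 28 pairs of upstream sequences shared at least 50 bases.

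Over all 107 protein-coding genes that started in member bins, the 250 bases before the start had a median GC content of 48.8% and a median of 5 CpG (quartiles 2 to 14). Median GC content was 52.4% for genes starting in bins M in both B cell maps and 42.4% for genes in bins L in both. The median was 7 CpG for genes starting in bins M in both B cell maps (n = 3717), 2 for genes in bins L in both (n = 2590) and 9 for all autosomal genes (n = 21413). At least 10 CpG were present before 29.9% of member genes, 43.2% of genes in bins M in both and 17.9% of genes in bins L in both. The letters TATAAA, searched on both strands and counted once where both overlapped, were in 18.7% of member sequences, against 12.5% for M in both, 26.6% for L in both and 12.4% of all autosomal genes. On each of these measures the member promoters lay between those of the unchanged M and the unchanged L bins. So did promoters in bins L in CH12 cells and M in primary B cells, with a median GC content of 47.2%, a median of 4 CpG, at least 10 CpG in 32.0% and TATAAA in 20.5% (n = 1832).

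Runs were from 20 to 1660 kb long, with a median of 140 kb (quartiles 60 to 320 kb). Only 45 runs reached 300 kb, the span over which the authors smoothed RT, but these held 63.5% of all member bins. Single bins made up 22 runs. Most runs lay at an edge between M and L, judged by the bin touching each end. In 111 runs with 895 bins, the touching bin was M in both maps on one side and L in both on the other. These runs had a median length of 80 kb. Of the 111, 92 were shorter than the smoothing span. A further 32 runs with 522 bins were islands, with bins L in both maps on either side, and had a median length of 250 kb. Another 13 runs with 196 bins were dips, with bins M in both maps on either side. The other 9 runs had mixed surroundings. Out of 330 run ends, 178 touched a bin L in both maps and 142 a bin M in both. Just 5 touched a bin E in CH12 cells and L in primary B cells.

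**Figure D1:**
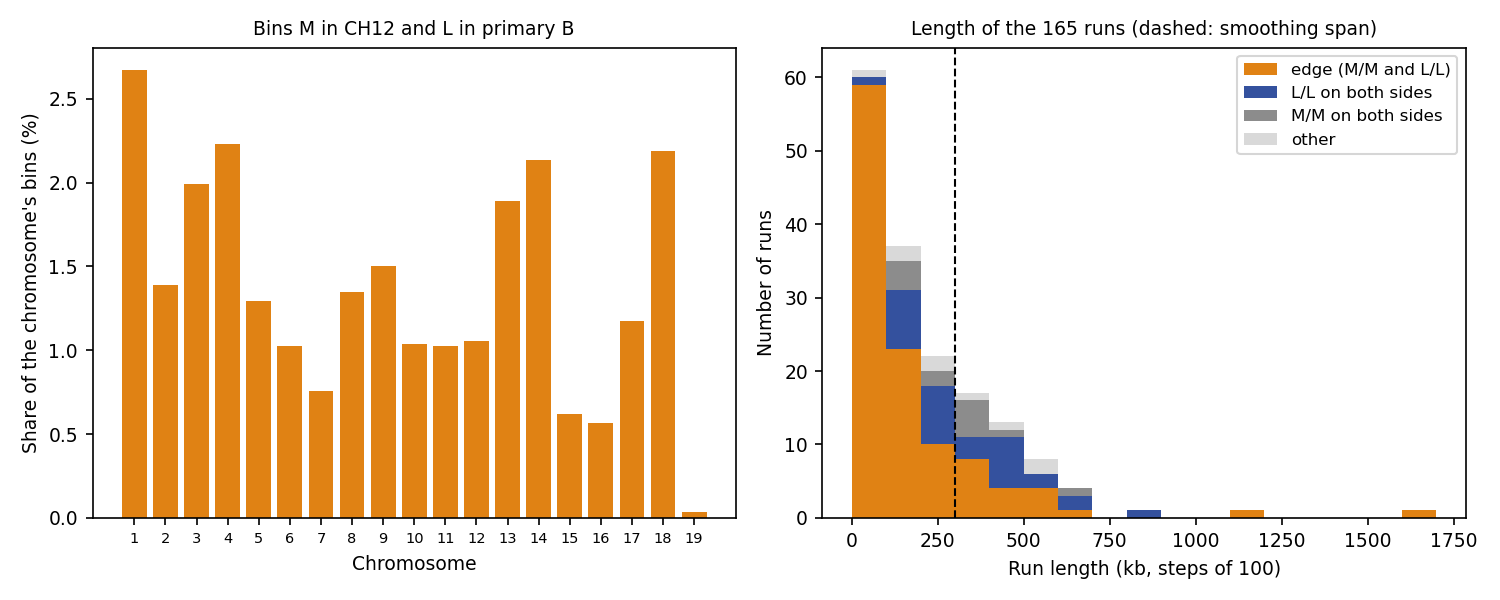
The left panel plots members as a share of the bins of each autosome (%), and the right panel the number of runs by length in steps of 100 kb, coloured by the state of the bins on either side, with a dashed line at the 300 kb smoothing span. Chromosome 1 had the highest share (2.67%) and chromosome 19 the lowest (0.0344%), and 45 of 165 runs reached the span.

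Seen from the CH12 map, members lay in 154 of 1229 M domains, and 35 of these domains consisted of members throughout. By bins, 57.9% of the members were in M domains with L on both sides, 35.3% in M domains between E and L, and 6.88% in M domains with E on both sides. In the primary B map, members lay in 151 of 608 L domains, of which 15 were members throughout. Members were unevenly spread over chromosomes. Chromosome 1 held 256 members in 16 runs, 14.7% of the total, and chromosome 19 held 1. As a share of the M bins of CH12 cells, the range ran from 0.123% on chromosome 19 to 10.3% on chromosome 4.

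The MEF map gave the timing of the same bins in cells that are not B cells. In MEFs, 59.2% of the members were M (Wilson 95% interval 56.9 to 61.5%), 34.3% were L (32.1 to 36.5%) and 6.48% were E (5.42 to 7.73%). Over all autosomal bins these shares were 37.1%, 29.1% and 33.8%. Intervals cover counting over bins only, and neighbouring bins are not independent. Bins M in both B cell maps had about the same M share in MEFs, 60.9%, but differed from the members in the rest: 32.4% of them were E and 6.63% L. Bins L in both B cell maps were 67.2% L, 30.2% M and 2.67% E in MEFs. Bins with the opposite change, L in CH12 cells and M in primary B cells, were 65.2% M, 18.6% L and 16.2% E. Members thus had a higher L share and a lower E share in MEFs than either class that was M in primary B cells.

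In the L share, chromosomes followed the comparison with the unchanged classes more often than that with the opposite change. Among the 18 chromosomes with at least 20 members, the L share in MEFs was above that of bins M in both maps on 16 and below that of bins L in both on 15. The E share was below that of bins M in both on 17 of 18, but above that of bins L in both on only 9. Against bins L in CH12 cells and M in primary B cells, the members' L share was higher on 10 of 18 and their E share lower on 14. The level itself varied widely between chromosomes. On chromosome 12, 88.7% of the 62 members were L in MEFs, on chromosome 3, 76.9% of 156, and on chromosome 10, 75.8% of 66. On chromosome 16, all 27 members were M in MEFs, but they formed only 2 runs. Runs numbered 9 on chromosome 12, 14 on chromosome 3 and 7 on chromosome 10. From end to end, 141 of the 165 runs lay in 1 MEF state, 84 in M, 45 in L and 12 in E. Single bins can hold only 1 state, and smoothing ties neighbouring bins together. Of the 143 longer runs 119 lay in 1 state, and of the 45 runs of at least 300 kb 32 did.

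The surroundings of a run went with its MEF state. Island bins were 65.9% L in MEFs, close to the 67.2% of bins L in both B cell maps. Edge bins were 68.7% M and 23.5% L, and dip bins 80.6% M and 7.14% L. E in MEFs was found in 12.2% of dip bins, 7.82% of edge bins and 3.07% of island bins. These shares rest on few runs: the 24 dip bins lay in runs with 13, 9 and 2 of them, and the 16 island bins in the same run.

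**Figure D2:**
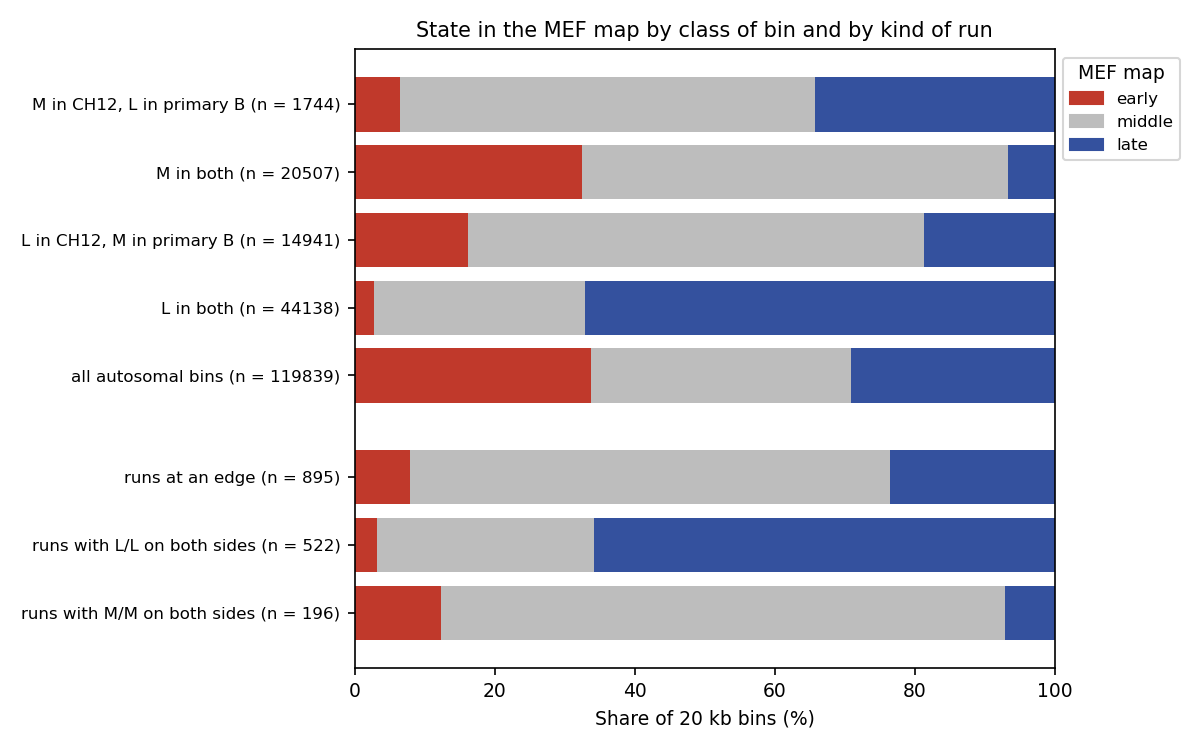
Share of 20 kb bins (%) that were early, middle or late in the MEF map, for 4 classes of bin, all autosomal bins and the 3 main kinds of member run; n is the number of bins. Members had 34.3% L bins, between bins M in both maps (6.63%) and bins L in both (67.2%), and runs flanked by L on both sides had the highest L share among the kinds of run (65.9%).

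Base composition also placed the members between the unchanged classes. Member bins had a median GC content of 40.6% (quartiles 38.6 to 42.7%), against 42.6% in bins M in both B cell maps, 38.5% in bins L in both and 41.0% in bins L in CH12 cells and M in primary B cells. CpG density had medians of 6.95, 8.70, 5.30 and 7.25 per kb in the same order. The members' GC median was below that of bins M in both on 16 of 18 chromosomes and above that of bins L in both on 15 of 18. GC content also differed with the MEF state. Members that were E in MEFs had a median of 42.6%, members M in MEFs 41.3% and members L in MEFs 38.7%. The position between the classes remained within a MEF state. Among bins M in MEFs, GC medians were 42.2% for M in both, 41.3% for members and 39.9% for L in both. Among bins L in MEFs, they were 39.6%, 38.7% and 37.9%.

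Gene starts were nearly as sparse in members as in the unchanged L bins. Protein-coding genes started in members at a density of 3.07 per Mb (107 starts, exact Poisson 95% interval 2.51 to 3.71, for counting error only). Bins L in both B cell maps had nearly the same density, 2.93 per Mb (2.82 to 3.05). Bins M in both had 9.07 per Mb (8.78 to 9.37), and bins L in CH12 cells and M in primary B cells had 6.13 per Mb (5.86 to 6.42). Over all autosomal bins the density was 8.94 per Mb. On all 18 chromosomes with at least 20 members, the members' density was below that of bins M in both and below that of bins L in CH12 cells and M in primary B cells, and on 8 of 18 it was below that of bins L in both. The MEF state made little difference: members M in MEFs had 2.95 starts per Mb and members L in MEFs 3.01, against 8.89 and 8.13 for bins M in both B cell maps and the same MEF states. The 113 members E in MEFs held 10 starts, or 4.42 per Mb (2.12 to 8.14).

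**Figure D3:**
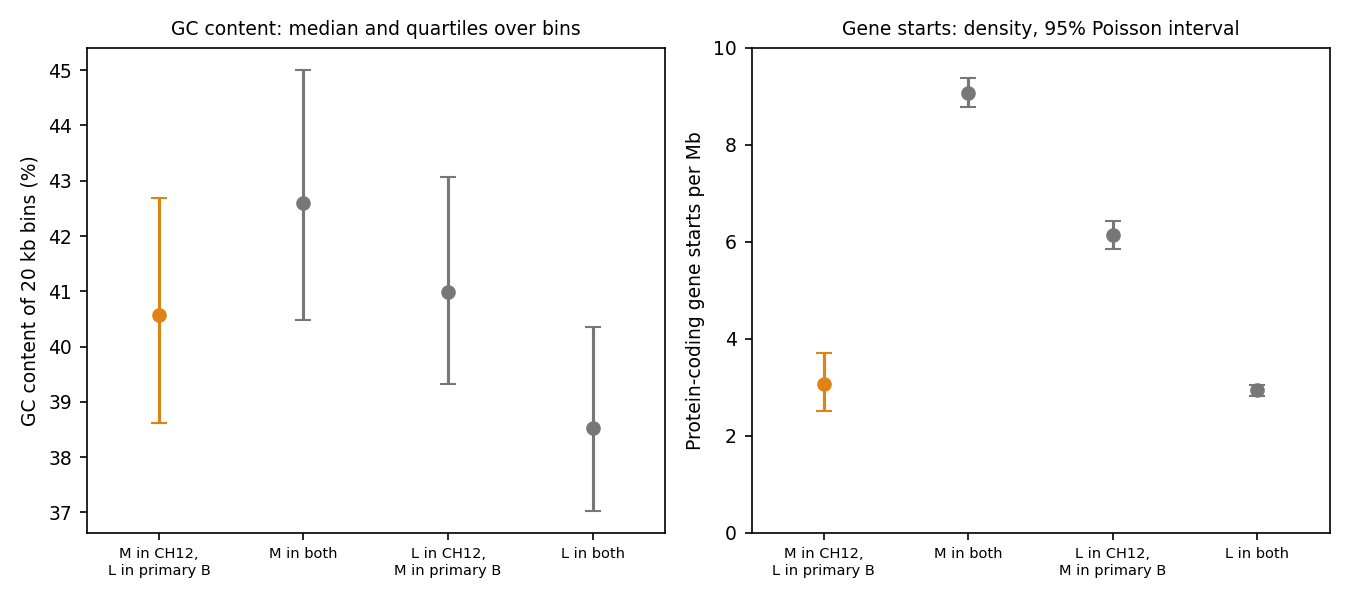
Left, GC content of 20 kb bins (%; points are medians, bars quartiles over bins); right, protein-coding gene starts per Mb (bars are exact Poisson 95% intervals) in the members and 3 classes of bin. The members' GC median (40.6%) lay between bins M in both (42.6%) and bins L in both (38.5%), while their gene density (3.07 per Mb) was near that of bins L in both (2.93 per Mb).

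The members' genes had a higher median length than those of the other classes. Genes starting in member bins had a median length of 22.4 kb, against 17.98 kb in bins M in both maps and 5.56 kb in bins L in both. Lengths overlapped widely, with quartiles of 6.35 to 92.3 kb for members and 4.97 to 52.8 kb for M in both. By kind of run, the members' medians were 42.3 kb at edges, 16.4 kb in islands and 8.29 kb in dips. The median was 14.0 kb in bins L in CH12 cells and M in primary B cells, and 15.5 kb over all autosomal bins. Among bins M in MEFs, medians were 22.7 kb for members, 17.2 kb for L in both and 15.6 kb for M in both. Among bins L in MEFs, they were 16.3, 2.66 and 11.8 kb in the same order. Of the 107 genes that started in members, 25 were longer than 100 kb. Exons of annotated genes of all types covered 1.49% of member bases, introns 34.6% and sequence outside genes 63.9%. Exons covered 3.53% of bins M in both and 0.952% of bins L in both, and introns 42.8% and 25.0%. Members thus lay between these classes in exon and intron cover, while their density of gene starts was near that of bins L in both.

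The 111 edge runs allowed a comparison of each run with its own neighbours. Each side was named after the bin that touched the run, and bins out to 300 kb were counted whatever their state. The sides can thus hold bins of other classes. On the M side, gene starts numbered 7.62 per Mb within 300 kb (6.71 to 8.62). Inside the runs the density was 2.74 per Mb (2.03 to 3.62), and on the L side it was 3.01 per Mb (2.45 to 3.66). The M side was itself graded: by distance from the run, the density was 8.56 per Mb in the bins at 300 kb, 5.45 at 40 kb and 4.50 at 20 kb, with 111, 110 and 111 bins. On the L side, the nearest bins had 4.05 per Mb, and the change was not placed at either end of the runs. At the 745 edge runs of the opposite kind, L in CH12 cells and M in primary B cells, the density was 10.4 per Mb on the M side, 5.93 inside and 4.39 on the L side. There the inside lay between its sides. The median GC content at member edges was 42.4% on the M side, 40.9% inside and 40.7% on the L side. Run by run, against flanks of up to 100 kb, GC content was below the M side in 77 of 111 runs and above the L side in 71, and the M side exceeded the L side in 85. The share of bins L in MEFs was 10.8% on the M side, 23.5% inside and 44.6% on the L side. In this L share, then, the inside of the edge runs was intermediate, but not in the other MEF states. The share of bins E in MEFs was 22.2% on the M side and 7.82% both inside and on the L side. The share of bins M in MEFs was 68.7% inside, slightly above that of the M side, and 47.6% on the L side.

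**Figure D4:**
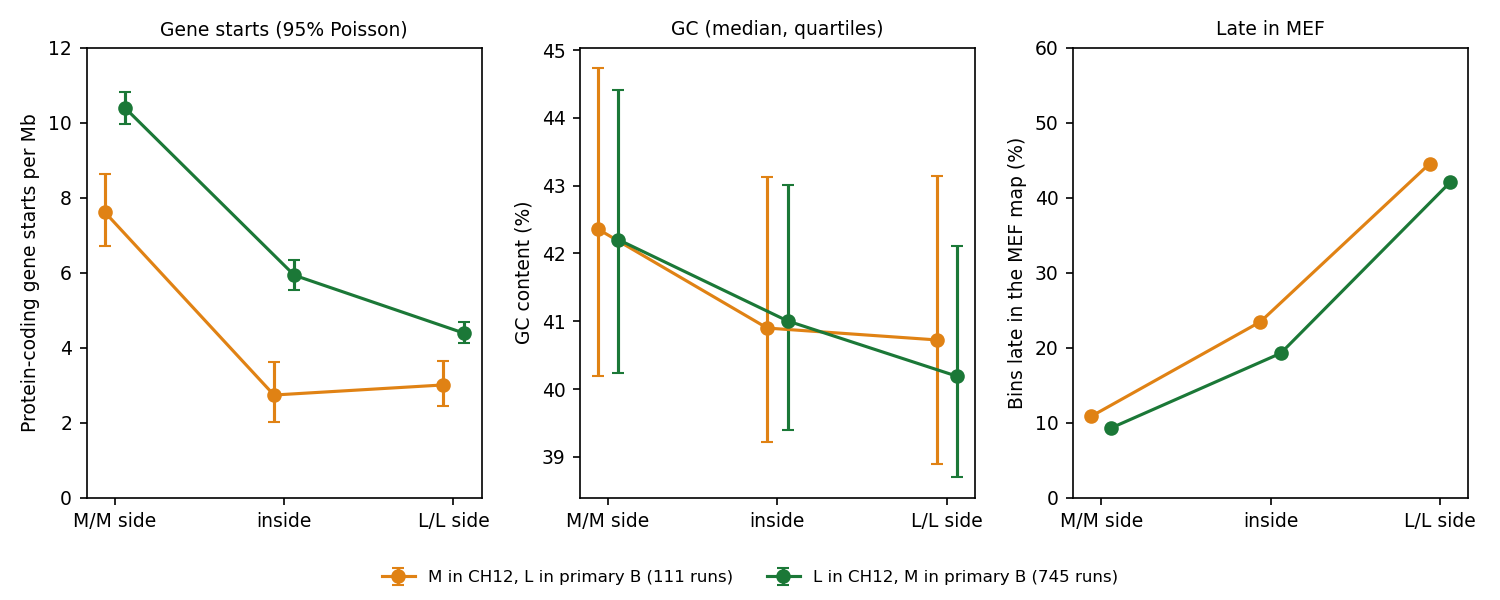
Protein-coding gene starts per Mb (bars are exact Poisson 95% intervals), GC content (%, medians and quartiles over bins) and share of bins late in MEFs (%). Values are for the M side, the inside of the run and the L side. Sides were named after the bin touching the run (M in both B cell maps or L in both), and bins within 300 kb were counted whatever their state. At the 111 member runs, the density was 7.62 per Mb over the M side, 2.74 inside and 3.01 over the L side, and at 745 runs of the opposite kind it was 10.4, 5.93 and 4.39 per Mb; each side is an average over up to 300 kb.

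The longest run lay on chromosome 4 (mm9 positions 12320001 to 13980000), an edge run of 1660 kb. It held 1 protein-coding gene, Runx1t1 (13670583 to 13820796), a transcriptional corepressor, which lay in it over its whole length of 150 kb. In MEFs, 68 of its 83 bins were M and 15 were L. The run had a GC content of 39.3%. The second longest run, 1120 kb on chromosome 1 (159880001 to 161000000), was also an edge run and held 4 genes. It made up most of an L domain of primary B cells, 1360 kb long with M on both sides. A further member run of 200 kb (159640001 to 159840000) lay in the same domain. Fam5b and Astn1, the latter a neuronal protein that guides migrating neurons along glia, started where MEFs were L. Pappa2 and 1600012P17Rik started where MEFs were M. Over the run, 30 bins were M and 26 L in MEFs. Astn1 spans 329 kb, and within it, on the same strand, lies the microRNA gene Mir488 (160435756 to 160435864). Its mature forms, from RefSeq with the seed in capitals (bases 2 to 8), are given because it was the only one of the 13 microRNA genes in members whose name matched the RefSeq table (build GRCm38.p6).
mmu-miR-488-5p: cCCAGAUAauagcacucucaa
mmu-miR-488-3p: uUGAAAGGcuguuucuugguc

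The third run, 820 kb on chromosome 3 (42300001 to 43120000), held 0 protein-coding genes and was an island, L on both sides in both maps. All its 41 bins were L in MEFs, which made it the longest run wholly L in MEFs, and its GC content was 36.9%. It was 1 whole M domain of CH12 cells inside an L domain of 8940 kb in primary B cells. The other 3 islands among the 10 longest were each 1 whole CH12 domain that overlapped a single gene. Epha4 (chromosome 1, run 77060001 to 77620000) lay in 560 kb that were M in MEFs in all 28 bins. Zfp521, a zinc finger transcription factor of blood and neural progenitors, lay in 620 kb on chromosome 18 that were M in MEFs in all 31 bins. Pex5l, whose product binds pacemaker channels in neurons, started in 600 kb on chromosome 3 (32940001 to 33540000) where 27 of 30 bins were L in MEFs, and 52.8% of its length lay in members.

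Among the other long runs, 680 kb on chromosome 1 (6100001 to 6780000) held Rb1cc1, needed to start autophagy, the gene model 4732440D04Rik and most of St18, a zinc finger transcription factor. All 34 bins were M in MEFs. On chromosome 5 (4460001 to 5080000), a dip of 620 kb held Fzd1, a Wnt receptor, and 44.8% of Cdk14, and was M in MEFs in all 31 bins. On chromosome 13 (119400001 to 119960000), an edge run of 560 kb held Fgf10 and was M in MEFs in all 28 bins. Of the 10 longest runs, 5 were M in MEFs throughout, 2 were L throughout, 3 held both states and 0 had an E bin.

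The run of 580 kb on chromosome 2 (176820001 to 177400000) differed from the others. It held 8 gene models, Gm14401, Gm14410, Gm14409, Gm14412, Gm14418, Gm14420, Gm14403 and Gm14406, and 29 of 29 bins were L in MEFs. In primary B cells it was a whole L domain whose right end met bins without a state. Only unique alignments were kept, so reads lying wholly within stretches shared between copies cannot be placed. Upstream sequences shared at least 50 bases in 7 of 28 pairs, with a median of 17 bases over pairs. The rest of the run was not compared. The part of shared sequence in the state calls was not tested.

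**Figure D5:**
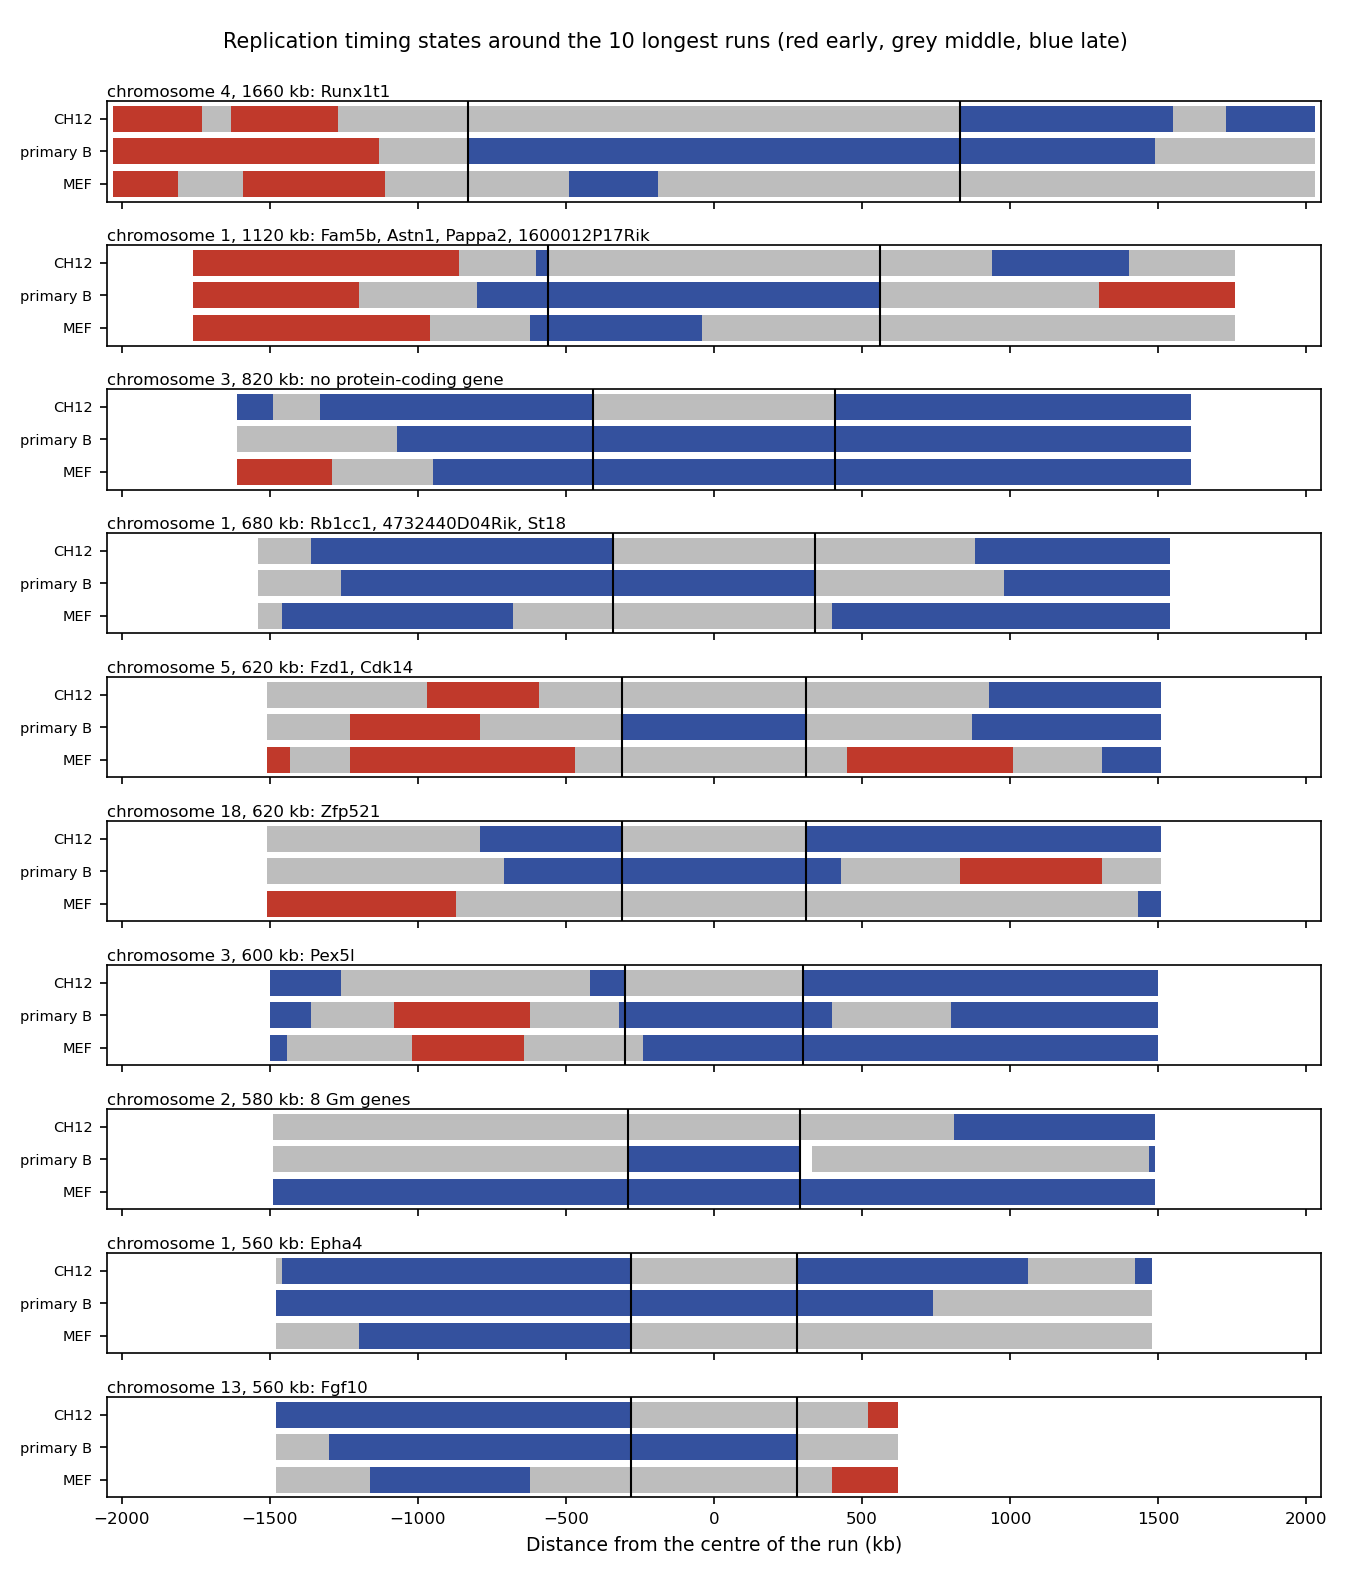
State along the chromosome in CH12 cells, primary B cells and MEFs around the 10 longest runs (red early, grey middle, blue late, white without a state); the horizontal axis is the distance from the centre of the run in kb and black lines mark the ends of the run. The B cell states inside the 10 runs follow from the choice of members, while MEF bins inside them were M or L and none was E.

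Few runs were early in MEFs. The longest of the 12 that were E in MEFs throughout covered 460 kb on chromosome 6 (36720001 to 37180000). It overlapped Ptn, which encodes the growth factor pleiotrophin, the gene 1700111E14Rik and 84.5% of Dgki, a diacylglycerol kinase, and all 23 bins were E in MEFs. The bins around the start of Dgki were E in CH12 cells, M in primary B cells and E in MEFs, so the gene crossed from earlier chromatin into the run.

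Protein-coding genes starting in members were 107 of 21418, or 0.500% of the autosomal total, and genes overlapping them 159, or 0.742%. Of the 107, 84 lay wholly inside. With other gene types, 216 of 34653 annotated autosomal genes started in members. Among them were 27 of 4055 pseudogenes, 14 of 1458 small nucleolar RNA genes, 13 of 1468 microRNA genes and 6 of 1232 long intergenic RNA genes. By MEF state, 61 of the 107 protein-coding genes started in bins M, 36 in bins L and 10 in bins E in MEFs. The 10 longest genes with over 80% of their length in members ran from 189 to 473 kb. They were 1700007G11Rik, Dgki, Plxna4, a semaphorin receptor, St18, Astn1, Zfp521, Pappa2, Trp63, the p53 relative of stratified epithelia, 3110082D06Rik and Tcerg1l. Plxna4 (444 kb), Astn1 (329 kb), Zfp521 (286 kb), Pappa2 (246 kb) and Tcerg1l (189 kb) lay in members over their whole length. Trp63 and 1700007G11Rik started outside, in bins M in both B cell maps, and 92.2% and 99.7% of their length was in members.

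Lists of B cell, T cell and myeloid genes had no starts in members. Of 64 genes of B cell lineage and activation 0 started in members, which allows a share of up to 4.69%, and 48 of the 64 started in bins E in both B cell maps. Counts were also 0 of 40 for T cell, NK and cytotoxic genes (up to 7.50%), 0 of 36 for myeloid genes (up to 8.33%), 0 of 58 for DNA replication genes (up to 5.17%) and 0 of 52 for long genes at common fragile sites (up to 5.77%). By overlap alone, Bcl11b, a T cell transcription factor, held 1 member bin, and Ntm and Fgf14, both neuronal genes of the fragile site list, held 12 and 14. Against the 0.500% of all genes, these lists are too short to show a depletion. Of 1106 olfactory receptors 0 started in members, and since these genes lie in clusters that share bins and domains, they do not count as independent genes.

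Other lists had few starts. Of 202 cytokine, chemokine and receptor genes, Tgfb2 was the 1 in members, a transforming growth factor on chromosome 1. The 131 genes of synaptic and neuronal adhesion had 3 starts (2.29%), Epha4, Astn1 and Plxna4, and 7 genes by overlap. Zinc finger genes had 2 of 390 (0.513%), Zfp488 and Zfp521. There was 1 start each among 220 homeobox and developmental factors (Sox17, of the endoderm), 178 ion channels (Kcnj8), 136 cytochrome P450 and UDP-glucuronosyltransferase genes (Cyp19a1, the aromatase), 57 cadherins (Cdh12), 57 immunoglobulin superfamily receptors (Skint1) and 324 vomeronasal receptors (Vmn2r96). In all, 17 of 26 lists had 0 starts and no list had more than 3.

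Several runs held groups of related genes, which were picked out after the members were seen. An island of 240 kb on chromosome 13 (27500001 to 27740000) held 6 of the 26 annotated prolactin family genes, Prl8a6, Prl8a8, Prl8a9, Prl8a1, Prl7b1 and Prl7a1, hormones made mainly by the placenta. It had a GC content of 37.1%, and its 12 bins were M in MEFs. Of the 26 family genes, 16 started in bins L in both B cell maps. A dip of 140 kb on chromosome 14 (53600001 to 53740000) held 11 V segments of the T cell receptor alpha locus, such as Trav9d-4 and Trav6d-7, out of 355 segments that the annotation files as V genes. Its 7 bins were M in MEFs. A dip of 300 kb on the same chromosome (34580001 to 34880000) held Gdf10 and Gdf2, ligands of the TGF beta superfamily, with Rbp3 and Zfp488, and was M in MEFs in all 15 bins.

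Genes of other lineages also showed how the MEF state varied among members, and these too were picked after their values were seen. Nefm and Nefl, subunits of neurofilaments, lay in an edge run of 240 kb on chromosome 14 (68580001 to 68820000) with 9 bins E and 3 M in MEFs. Klf5, Pibf1 and Dis3, the last a ribonuclease of the RNA exosome, lay in an island of 480 kb on chromosome 14 (99480001 to 99960000) with 16 bins E and 8 M in MEFs. This island held all 16 island bins that were E in MEFs. By contrast, Etv1, an ETS family transcription factor, lay in an island of 460 kb on chromosome 12 (39420001 to 39880000) with all 23 bins L in MEFs. The start of Snrpn, an imprinted gene with a role in splicing, lay in an island of 160 kb on chromosome 7 (67200001 to 67360000) with all 8 bins L in MEFs. In these 4 runs the B cell states were the same while MEFs ranged from mostly E to wholly L.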

How the data were processed

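Per the file headers and labels, the deposited maps list domains with a state number and no RT value, so the values used here are categories of no scale. The authors trimmed 50-base single reads (Trim Galore 0.6.5), aligned them to mm9 (BWA 0.7.17, SAMtools 1.9), kept unique alignments, merged replicates, computed RT as log2 of early over late reads in 20 kb windows, smoothed it by loess over 300 kb and called 3 states with a hidden Markov model for each map. Depth is unknown, edges are blurred by the span, and the RT values that part the states can differ between maps.

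State numbers were named here from which states touch and from gene density: B cell maps 2 for E, 1 for M and 0 for L, and the MEF map 0, 2 and 1. Domains were assigned to the bins of the NCBIM37 reference, 3785 autosomal bins of only unknown bases were dropped, and adjacent members were merged. Genes came from GENCODE M1 and were placed by their start on their strand. Shares carry Wilson and densities exact Poisson 95% intervals. With 1 map per condition no test was made. A share of 0 allows up to 3 counts. The reference was not soft-masked, so repeats were not counted.

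The members and lists were chosen with earlier results of these data known. Named were the 10 longest runs and their genes, the longest run in each MEF state, list genes in members (up to 4 for families) and the 10 longest genes over 80% in members. Upstream sequences were those of genes in the longest runs, and 5 of them were printed. Another item is not reported here. Functions were tested on simulated maps over 131957 bins, and 7 of 7 checks passed. Software was matplotlib 3.10.9, scipy 1.17.1, pandas 2.3.3, numpy 2.4.6 and Python 3.11.15.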

Additional observations from a re-analysis of the deposited data

How the results depend on the processing

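Alternatives gave 58 values for 25 results, of which 34 stayed within the 95% interval of the value reported (for counts and gene density, within 1.5 times it; for GC and CpG, within 1 SD over bins) and 24 moved. Without bins within 100 kb of a boundary, members numbered 696, or 0.858% of the bins left, and 4.60% of them were E in MEFs. Domains of at least 300 kb in both maps gave 1.16%. Runs of at least 100 kb numbered 104, with a median of 240 kb. Runs of at least 300 kb had 5.33% of bins E and 61.7% M in MEFs. Counting each run once by its majority state gave 10.3% E and 31.5% L. Leaving out chromosome 1 gave 56.2% M and 36.8% L in MEFs, and leaving out the 10 longest runs gave 8.35% E, both chosen after seeing the data. Gene starts of all types numbered 6.19 per Mb, and protein-coding genes counted by overlap 4.56 per Mb, outside the counting interval of 2.51 to 3.71. Without bins near boundaries and without chromosome 1, the L share in MEFs, GC content and CpG density of the members stayed between those of bins M in both and L in both. Counting overlap in place of starts moved 8 lists. No member lay in the first 3 Mb of a chromosome, and chromosome X added 156 bins, 1900 in all.

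No paired analysis was possible because the maps hold states of pooled replicates, and a single map exists for each condition. States were called in each map separately, on RT values not used here, and how far their limits differ was not tested. Short edge runs lie within the smoothing span.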
